A study of Homo sapiens with 2 samples.

Results

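The small heat shock protein genes were read in HEK293T cells after heat shock and recovery. They were taken as 10 genes, HSPB1, HSPB2, HSPB3, HSPB6, HSPB7, HSPB8, HSPB9, HSPB11, CRYAA and CRYAB, matched by current or older symbol to the gene identifiers of the tables. Of these, 9 had a row among 57736 listed genes, HSPB11 through its current symbol IFT25, and HSPB9 (ENSG00000260325) is not analysed here. The data were RNA-Seq of poly(A)+ RNA from HEK293T, a wild-type line from human embryonic kidney, transformed with adenoviral DNA and carrying the large T antigen of SV40. By the labels, cells were held at 43 °C for 20 min and then at 37 °C for 6 h. The study's text describes a longer time at 43 °C for its heat shock. The 2 libraries, replicate 1 and replicate 2, form 1 group. Each came from separately lysed cells, although the labels do not say whether the cultures were separate. P-values between the libraries therefore concern only these samples. Those of the main test weigh the difference against counting noise alone and do not measure the spread between samples. Each level is the state after recovery, and since untreated cells are not analysed here, heat shock itself was not compared. In bulk RNA, fewer cells that express a gene and less RNA per cell cannot be told apart.

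Small heat shock proteins are compact chaperones built around an alpha-crystallin domain. They form oligomers that bind unfolding proteins without ATP and hold them until HSP70 and its co-chaperones refold them. HSPB1 (HSP27) and HSPB8 are widely expressed, CRYAA belongs to the lens, CRYAB to lens and muscle, HSPB2, HSPB3, HSPB6 and HSPB7 to muscle and heart, and HSPB9 to testis. HSPB11 carries the family's name but works as a subunit of the intraflagellar transport B complex, which carries cargo along cilia. Heat shock factors bind promoters at repeats of the letters GAA and TTC.

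Promoter windows of RefSeq (GRCh38.p14), 250 bases before to 50 after the start, were searched for these repeats. Each pair of units was spelled GAANNTTC or TTCNNGAA, which read the same on both strands. Windows were available for 8 members, in 10 entries, and 4 members held a match. HSPB1 held GAAGGTTC, beginning 182 bases upstream. HSPB8 held GAATATTC, beginning 88 bases upstream, and GAAGTTTC, which began 5 bases after the start. HSPB6 held TTCTGGAA and GAATCTTC, beginning 210 and 196 bases upstream, and HSPB3 held TTCTTGAA, 242 bases upstream. CRYAA, HSPB7, HSPB9 and both windows of HSPB11 held neither spelling.

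Of all 35116 windows of that length, 13.5% held either spelling, 6.77% GAANNTTC and 7.74% TTCNNGAA, and 1.71% held at least 2 matches. The three-unit form GAANNTTCNNGAA was in 0 members' windows and in 0.490% of all windows. A match is a description of letters and not of binding, and no match says only that these letters are not in the window. The windows of the most abundant member (HSPB1, plus strand of chr7:76302423-76302722), of the second (HSPB11, minus strand of chr1:53946256-53946555), and of HSPB8 (plus strand of chr12:119178681-119178980) and HSPB6 (minus strand of chr19:35756980-35757279) are shown 5′ to 3′, with the matched letters in capitals.
HSPB1: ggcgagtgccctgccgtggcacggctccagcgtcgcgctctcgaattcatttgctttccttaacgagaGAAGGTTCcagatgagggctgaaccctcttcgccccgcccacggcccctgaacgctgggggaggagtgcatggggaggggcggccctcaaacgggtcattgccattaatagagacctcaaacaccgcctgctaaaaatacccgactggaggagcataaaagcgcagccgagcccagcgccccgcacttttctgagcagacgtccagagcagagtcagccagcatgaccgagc
HSPB8: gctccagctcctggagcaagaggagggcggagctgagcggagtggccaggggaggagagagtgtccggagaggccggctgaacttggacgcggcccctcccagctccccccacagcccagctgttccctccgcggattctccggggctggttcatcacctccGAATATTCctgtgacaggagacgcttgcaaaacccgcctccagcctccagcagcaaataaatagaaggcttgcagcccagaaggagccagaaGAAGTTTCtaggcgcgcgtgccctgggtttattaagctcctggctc
HSPB6: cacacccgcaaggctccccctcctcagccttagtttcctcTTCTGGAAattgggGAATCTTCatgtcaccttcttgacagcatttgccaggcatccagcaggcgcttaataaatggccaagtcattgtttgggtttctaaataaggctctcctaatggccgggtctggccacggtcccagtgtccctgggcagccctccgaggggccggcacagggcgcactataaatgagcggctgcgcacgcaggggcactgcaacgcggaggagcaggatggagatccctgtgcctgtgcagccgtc
HSPB11: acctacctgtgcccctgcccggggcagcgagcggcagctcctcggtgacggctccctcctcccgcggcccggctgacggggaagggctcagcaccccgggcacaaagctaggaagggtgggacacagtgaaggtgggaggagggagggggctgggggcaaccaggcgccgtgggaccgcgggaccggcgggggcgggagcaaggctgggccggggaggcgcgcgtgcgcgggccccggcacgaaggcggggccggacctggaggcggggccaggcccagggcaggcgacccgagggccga

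The depth of the libraries was 22529828 and 26890199 expected counts. At 0 counts, up to 3 counts remain possible, a CPM of 0.133 in replicate 1 and 0.112 in replicate 2. Levels are given in TPM, a share of all transcripts that is scaled to transcript length and so can be compared between genes. A gene was called detected when both libraries had a TPM of at least 1. Of 6 HEK293 line genes with rows, 6 were detected, led by VIM, an intermediate filament gene, at 684 and 611 TPM, and UCHL1, a neuronal ubiquitin hydrolase gene, at 397 and 367 TPM.

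Which small heat shock protein genes were expressed was the first question. Of the 9 members with a row, 3 were detected, HSPB1, HSPB11 and HSPB8. Over all listed genes the share detected was 26.3%, and over protein-coding genes 63.8%. HSPB1 and HSPB11 stood far above the others, HSPB8 and HSPB6 were near 1 TPM, and CRYAB, CRYAA, HSPB2, HSPB7 and HSPB3 had between 0 and 3 expected counts in a library. The number detected lay between 2, at a TPM of at least 5 or by FPKM of at least 1, and 4, at a TPM of at least 0.1 or an expected count of at least 10.

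**Figure D1:**
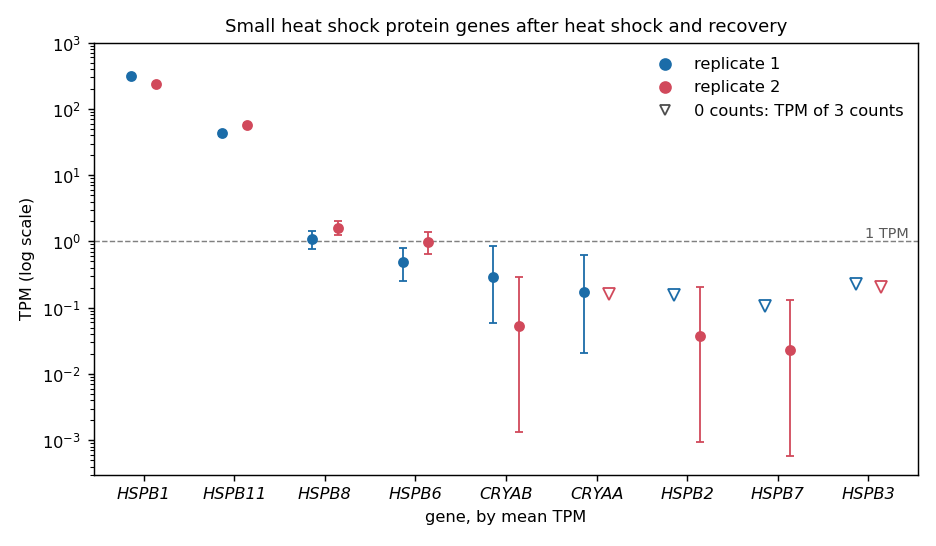
Level of each of the 9 members with a row, in TPM on a log axis, by replicate, with exact Poisson 95% bars that cover counting error only; open triangles mark genes with 0 counts at the TPM of 3 counts. HSPB1 at 310.69 and 236.82 TPM and HSPB11 at 43.07 and 57.01 TPM lie above the rest, whose highest value is 1.58 TPM of HSPB8 in replicate 2.

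HSPB1 (ENSG00000106211; chromosome 7, 75931990 to 75933612, plus strand of GRCh37) is the stress-phosphorylated member that binds unfolding proteins and actin filaments. It was at 310.69 TPM in replicate 1 and 236.82 TPM in replicate 2, or 274 ± 52.2 (SD, n = 2). Its level was highest of the family and ranked 380 of 19391 protein-coding genes, with 98.04% of them lower. Counts of 4993.7 and 4397.09 gave exact Poisson 95% intervals of 302 to 319 TPM and 230 to 244 TPM, which did not overlap between the replicates.

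HSPB11 (ENSG00000081870; chromosome 1, 54382247 to 54411372, minus strand), the cilium transport subunit, was at 43.07 TPM in replicate 1 and 57.01 TPM in replicate 2, or 50.0 ± 9.86 (SD, n = 2). It was the second member by level, at rank 2842 among protein-coding genes, with 85.3% lower. Its expected counts were 587 and 884.

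HSPB8 (ENSG00000152137; chromosome 12, 119609360 to 119662660, plus strand), which works with the co-chaperone BAG3 in selective autophagy, was at 1.07 TPM in replicate 1 and 1.58 TPM in replicate 2, or 1.33 ± 0.361 (SD, n = 2), from 41 and 69 expected counts. HSPB6 (ENSG00000004776; chromosome 19, 36245467 to 36248980, minus strand), the muscle member HSP20, was at 0.48 TPM in replicate 1 and 0.97 TPM in replicate 2, or 0.725 ± 0.346 (SD, n = 2), from 13.37 and 28.3 expected counts. Both were higher in replicate 2, and HSPB6 did not reach 1 TPM in either library.

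The lens and muscle members were near the limit of the depth. CRYAB (ENSG00000109846; chromosome 11, 111779288 to 111794446, minus strand), a chaperone of lens and muscle, had 3 and 1 expected counts, at 0.29 and 0.05 TPM. CRYAA (ENSG00000160202; chromosome 21, 44589118 to 44592915, plus strand), its lens partner, had 2 and 0, at 0.17 and 0 TPM. The muscle members HSPB2 (ENSG00000170276; chromosome 11, 111783458 to 111784817, plus strand) and HSPB7 (ENSG00000173641; chromosome 1, 16340523 to 16346089, minus strand) each had 0 counts in replicate 1 and 1 in replicate 2, at 0.04 and 0.02 TPM in the latter. HSPB3 (ENSG00000169271; chromosome 5, 53751529 to 53752207, plus strand), also of muscle, had 0 counts in both, which allowed up to 0.230 TPM in replicate 1 and 0.202 TPM in replicate 2. With so few counts, no order among these 5 members can be read.

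In the order of levels by TPM, the ranges of the 2 libraries did not overlap from HSPB1 to HSPB11, HSPB8, HSPB6 and CRYAB. From CRYAB downwards they overlapped. By posterior mean TPM, a separate estimate of the quantifier, CRYAB was above HSPB6, at 1.54 and 1.18 against 0.68 and 0.99. HSPB8 was at 1.33 and 1.80 by that estimate, below CRYAB in replicate 1 and above it in replicate 2. The Poisson intervals were apart in both libraries only between HSPB1 and HSPB11 and between HSPB11 and HSPB8. Those of HSPB8 and HSPB6, whose TPM ratio was 2.23 in replicate 1 and 1.63 in replicate 2, overlapped in both libraries. Those of HSPB6 and CRYAB overlapped in replicate 1. In replicate 2 they were apart, at 0.636 to 1.38 TPM for HSPB6 and 0.00133 to 0.293 TPM for CRYAB. Overlap of intervals is not a test of a difference, and levels were not tested between members.

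The summed level of the members was 355.77 TPM in replicate 1 and 296.49 TPM in replicate 2. HSPB1 made up 87.3% of it in replicate 1 and 79.9% in replicate 2, a mean of 83.6% ± 5.27 (SD, n = 2). HSPB11 made up 12.1% and 19.2%, and the remaining 7 members together 0.565% and 0.897%.

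Levels of the small members also depended on how the quantifier estimated them. RSEM gives a TPM and, from a separate posterior estimate, credibility bounds that can lie apart from it. For HSPB1, HSPB11, HSPB8 and HSPB6 the TPM lay within the bounds in both libraries. CRYAB lay below them in both, with bounds of 0.809 to 2.31 TPM in replicate 1 and 0.598 to 1.82 TPM in replicate 2, and its posterior mean TPM was 1.54 and 1.18. The annotation gives CRYAB 15 transcripts, and whether their number bears on the distance from the bounds was not tested. HSPB7 lay below its bounds in both libraries and CRYAA in replicate 2. HSPB3 in both libraries and HSPB2 in replicate 1 were at 0, under a lower bound that was itself near 0. Of all listed genes, 56.2% lay below their own bounds in replicate 1 and 53.1% in replicate 2, and of genes with 1 to 30 expected counts 12.2% and 10.8% did.

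**Figure D2:**
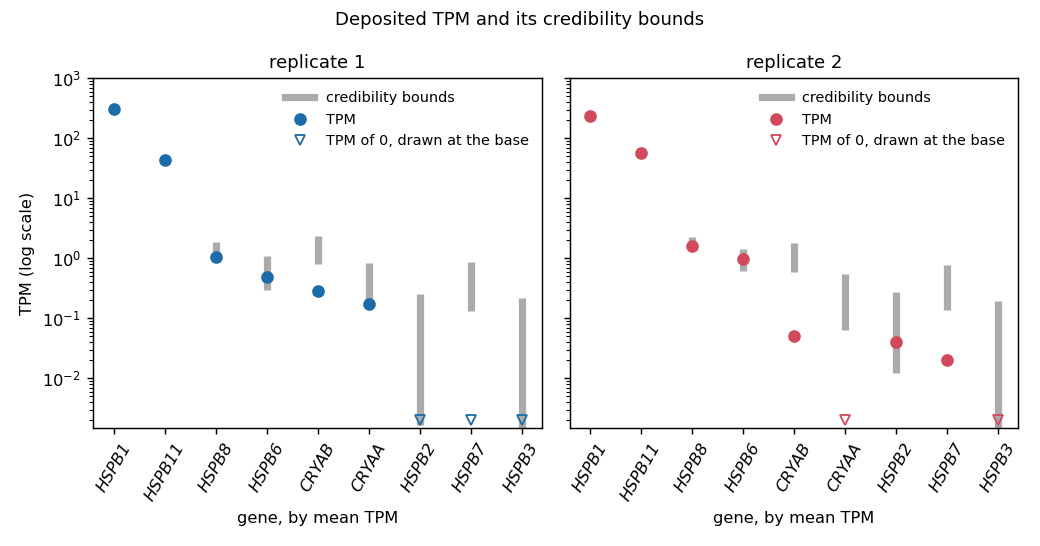
Deposited TPM of each member (points, log axis; open triangles are a TPM of 0 drawn at the base) with the credibility bounds deposited beside it (grey bars), by replicate. CRYAB lies below its bars in both libraries, while the points of HSPB1, HSPB11, HSPB8 and HSPB6 lie on theirs.

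Some members share sequence with other genes, so that their reads could be divided. Of 1549 sequences of 50 bases in the transcripts of HSPB1, 98 were also in the processed copy HSPB1P1 and 32 in HSPB1P2. Those copies were given 0.0660% of the summed counts in replicate 1 and 0.157% in replicate 2. HSPB6 overlaps the antisense lncRNA ENSG00000267328, with which 564 of its 1722 sequences of 50 bases were shared on the opposite strand. That lncRNA was given 7.63 and 0.70 expected counts, or 36.3% and 2.41% of their sum, and the posterior SD of HSPB6 was 3.08 and 2.41 reads. The lncRNA had the same posterior SD, and the counts of the 2 genes summed to whole numbers, 21 and 29. Reads were thus divided between genes on opposite strands. In the shared sequences the 2 genes cannot be told apart, and the level of HSPB6 is uncertain.

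HSPB2 and CRYAA share sequence with other genes as well, although their few counts were whole numbers with a posterior SD of 0 reads in both libraries. HSPB2 shared 84.6% of its sequences with the readthrough gene HSPB2-C11orf52, which was at 0 counts in both libraries, and 56.9% on the opposite strand with CRYAB, which overlaps it. CRYAA shared 58.6% with a gene annotated as an artifact, which has no row and so took no reads in these tables. HSPB11 shared at most 0.407% with any 1 gene, and its nearest neighbour LRRC42, 386 bp away, was at 16.37 and 16.59 TPM.

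How far the libraries differed in each member beyond counting noise was asked with an exact two-sided binomial test on rounded counts, scaled by TMM, with Benjamini-Hochberg adjustment over 19714 genes. It compared these 2 libraries and not conditions. Of 4 members with a summed count of at least 10, 2 passed a threshold of 0.05, beside 42.2% of all genes tested. HSPB1 was higher in replicate 1, as were 20.1% of genes, and HSPB11 was higher in replicate 2, as were 22.1%.

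HSPB1 had a log2 ratio of replicate 2 over replicate 1 of -0.47, that is 1.38-fold higher in replicate 1 (exact binomial test, adjusted p = 2.08e-53). HSPB11 had a log2 ratio of 0.31, or 1.24-fold higher in replicate 2 (exact binomial test, adjusted p = 0.000215). HSPB8 had a log2 ratio of 0.46 (exact binomial test, adjusted p = 0.194). HSPB6 had one of 0.80 (exact binomial test, adjusted p = 0.167), which was 0.17 when its reads were summed with those of the antisense lncRNA (exact binomial test, unadjusted p = 0.673), a sum chosen after seeing the data.

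The ratio between the libraries moved with GC content, and HSPB1 and HSPB11 lie near opposite ends of it. The GC content of reference transcripts was 65.2% for HSPB1, 65.7% for HSPB6, 48.5% for HSPB8 and 38.4% for HSPB11. Among the 1354 genes of 61.7% to 83.9% GC, the class of HSPB1, the median log2 ratio was -0.25, and among the 1354 genes of 31.0% to 39.6% GC, the class of HSPB11, it was 0.67. With the GC trend removed, 26.8% of genes passed. HSPB1 then stayed higher in replicate 1, with a log2 ratio of -0.20 (exact binomial test, adjusted p = 1.63e-10), while HSPB11 reversed to -0.33 (exact binomial test, adjusted p = 0.000188). The direction of HSPB11 between the libraries thus depends on this correction.

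A test that takes the spread between these libraries as its error, the edgeR exact test with a common dispersion, called 0 of the 4 members. It called 0.801% of all genes. At an unadjusted p under 0.05 it also called 0 of the 4 members, the smallest unadjusted p being 0.195 for HSPB6, while the exact binomial test called 2. Its dispersion came from the same 2 libraries, which makes it conservative.

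**Figure D3:**
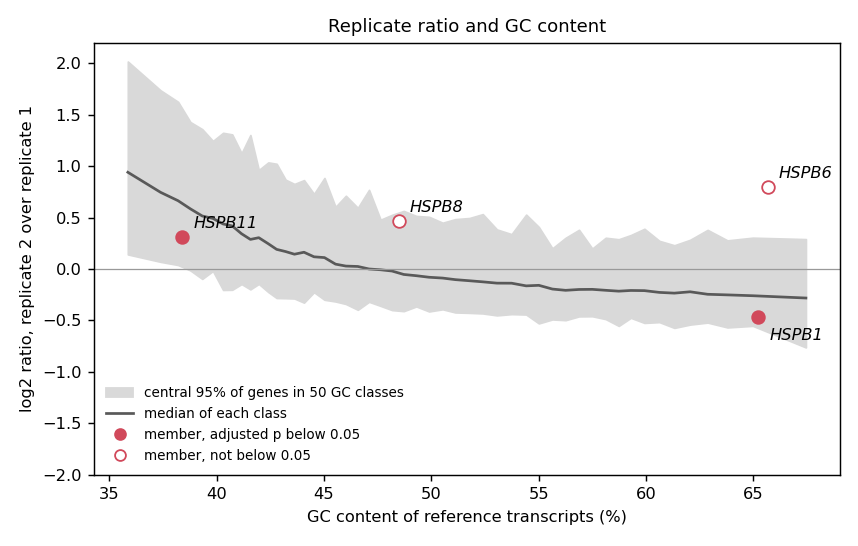
Log2 ratio of replicate 2 over replicate 1 against the GC content of reference transcripts, with the median (line) and central 95% (grey) of genes in 50 GC classes; filled points are members with an adjusted p below 0.05 by the exact binomial test. HSPB11, at 38.4% GC and 0.31, lies below the line, and HSPB1, at 65.2% GC and -0.47, also lies below it. HSPB8 and HSPB6 are open points, and HSPB6 does not reach the summed count of 100 that genes in the band have.

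The genes that act with the small heat shock proteins were read from lists of regulators, partners and downstream chaperones. Of 3 heat shock factor genes and the gene of the factor-binding protein HSBP1, 4 of 4 were detected. HSF1, the main activator of the heat shock response, was at 118 and 118 TPM, so that HSPB1 was at 2.63 and 2.01 times its level. HSBP1, which binds HSF1, was at 119 and 108 TPM, HSF2 at 22.0 and 26.9 TPM, and HSF4, the lens factor, at 6.76 and 9.89 TPM.

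The kinases and phosphatase subunits that act on HSPB1 were detected in 6 of 6 cases. MAPKAPK2, the kinase that phosphorylates HSPB1, was at 44.8 and 41.3 TPM, and MAPKAPK3, a close relative, at 88.7 and 77.9 TPM. PPP2R1A, the scaffold of protein phosphatase 2A, was highest at 150 and 121 TPM, and PPP2CA, its catalytic subunit, was lowest at 27.3 and 32.4 TPM.

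Of the 7 binding partners and degradation genes, 6 were detected. BAG3, the partner of HSPB8, was at 37.1 and 37.5 TPM, which was 34.7 and 23.7 times the level of HSPB8. EIF2AK1, the kinase that pairs with HSPB8 in stress signalling, was at 180 and 177 TPM, STUB1, a ubiquitin ligase, at 174 and 137 TPM, and DAXX, which HSPB1 binds, at 117 and 108 TPM. SYNPO2, which joins BAG3 in chaperone-assisted autophagy, was lowest, at 0.18 and 0.28 TPM.

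Of the 8 refolding chaperones that take over clients, 7 were detected. HSPA8, the constitutive HSP70, was 3.93 times the level of HSPB1 in replicate 1 and 4.80 times in replicate 2. HSPA1B, the inducible HSP70, was 1.11 and 1.59 times as high as HSPB1, and HSP90AB1 2.02 and 2.63 times. HSP90AA1, inducible HSP90, was below HSPB1 in replicate 1, at 0.797 of it, and above in replicate 2, at 1.72. DNAJB1, an HSP40, was below it, with HSPB1 at 3.31 and 2.74 times its level. HSPA1A, which is near-identical to HSPA1B, was lowest at 0.47 and 1.05 TPM and is uncertain. The level of HSPA1B may likewise hold reads of HSPA1A.

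The other subunits of the intraflagellar transport B complex were read beside HSPB11, and 16 of 16 were detected, with levels from 1.34 to 87.1 TPM. HSPB11 pairs with IFT27, which was at 36.0 and 31.7 TPM, so that HSPB11 was 1.20 and 1.80 times its level. The highest were IFT57 at 74.7 and 99.6 TPM, IFT46 at 44.3 and 42.5 TPM, and IFT80 at 19.9 and 57.1 TPM. Of the 16, 9 passed the exact binomial test between the libraries, 3 of them higher in replicate 1 and 6 in replicate 2, beside 42.2% of all genes tested. After removal of the GC trend 7 did, 3 higher in replicate 1 and 4 in replicate 2, beside 26.8% of all genes. Genes with more counts pass this test at smaller differences, and genes of like counts were not compared. TTC30A was lowest, at 1.27 and 1.41 TPM.

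Of the copies, the readthrough gene and the tenth family member, 0 of 4 were detected. HSPB1P1 was at 0 and 0.60 TPM and HSPB1P2 at 0.36 and 0.42 TPM, and ODF1, which is also called HSPB10 and belongs to sperm tails, was at 0 in both libraries.

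Markers of the tissues where the low members are usually found were read as well. Of 8 lens markers, 2 were detected, CRYBB2 at 4.99 and 3.97 TPM and BFSP1 at 1.63 and 1.45 TPM. BFSP2, CRYBA1 and LIM2 were at a TPM of 0. The credibility bounds of BFSP2 were 0.157 to 1.14 TPM in replicate 1 and 0.141 to 1.02 TPM in replicate 2. Those of CRYBA1 and LIM2 reached at most 0.389 TPM. The summed level of the lens markers was 7.39 TPM in replicate 1 and 6.41 TPM in replicate 2. Of 10 striated muscle markers, 2 were detected, TNNT1 at 64.2 and 52.8 TPM and MYOD1 at 2.97 and 2.28 TPM. MYH2 and TNNT3 were at a TPM of 0. The credibility bounds of TNNT3 were 0.621 to 1.79 TPM in replicate 1 and 0.556 to 1.60 TPM in replicate 2. Those of MYH2 reached at most 0.492 TPM. TTN, with 390.76 and 912.8 expected counts, was at 0.26 and 0.57 TPM. It lay below its bounds of 0.425 to 1.22 TPM in replicate 1 and 0.745 to 1.62 TPM in replicate 2. TNNT1, a slow muscle troponin gene, was above HSPB11 in replicate 1 and below it in replicate 2. The sum over all 10 muscle markers was 68.2 TPM in replicate 1 and 57.0 TPM in replicate 2. Of 6 testis markers 0 were detected, with a sum of 0 and 0.04 TPM. DDX4, at 0 and 0.04 TPM, lay below its credibility bounds of 0.403 to 1.52 TPM and 0.396 to 1.39 TPM. Those of the other testis markers reached at most 0.444 TPM.

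**Figure D4:**
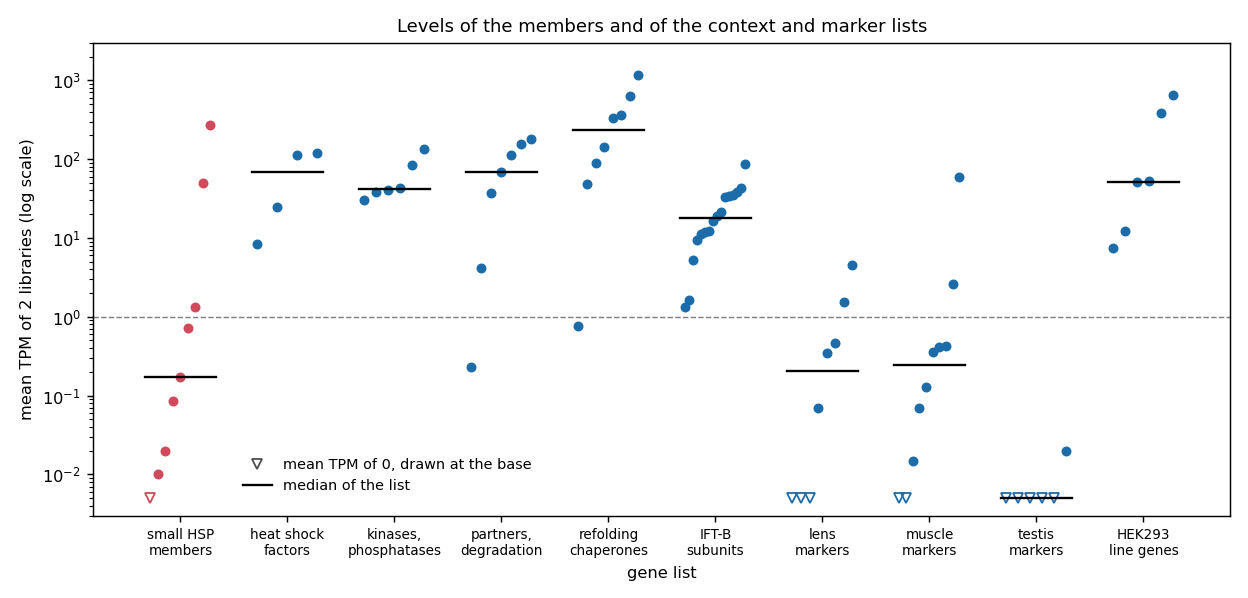
Mean TPM of the 2 libraries on a log axis for the members (red) and for each context and marker list (blue), 1 point a gene, with the median of each list as a black line and genes at 0 drawn at the base as triangles. The members range from 0 to 273.755 TPM with a median of 0.17, close to the lens median of 0.208 and the muscle median of 0.243, and below the refolding chaperones' median of 236.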

How the data were processed

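Poly(A)+ RNA of 2 HEK293T libraries was sequenced by the authors with 50 bp reads, after heat shock and recovery. The molecule is labelled as genomic DNA, against the protocol of the same labels. Per the submitters' processing notes, Trimmomatic 0.36, STAR 2.6.1c and RSEM 1.3.1 were used, with hg19, while the methods name featureCounts. The expected counts deposited by the authors share multi-mapped reads among genes, which can move reads between copies. The TPM deposited by the authors is scaled to length and total, and the FPKM deposited by the authors to length and reads. Whether counting used strand is not stated in those sources. A table of the whole series was read as the authors' pooled values.

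Counts were rounded for an exact two-sided binomial test (scipy 1.17.1), with TMM factors over all genes (edgeR 4.0.16, R 4.3.3), a summed count of at least 10, Benjamini-Hochberg adjustment over all genes tested, a threshold of 0.05 and a pseudocount of 0.5 on log2 ratios. The libraries are 1 group, so no test between conditions was possible. The GC trend was the median log2 ratio in 50 GC classes, over genes whose counts summed to 100 or more. Intervals are exact Poisson at 95% and cover counting error only. The exact binomial test was tried on simulated counts that held counting noise alone, without a GC trend or further spread. Positions came from a GENCODE annotation of GRCh37, and promoters from RefSeq. Alternatives covered detection thresholds, units, scaling (DESeq2 1.42.0 size factors, library totals), count minimums, pseudocounts, the edgeR exact test, and each library left out. Genes were named by a rule: every member, of each list the 3 highest and the lowest by mean TPM, genes at 0 or tied directly to a member, and neighbours within 5 kb, not all of which are reported here. HSP90AA1, DNAJB1 and TTN were singled out as well, after their values were seen, and the protein comparison that had been planned was not made. Members and lists were chosen with earlier results of these data known.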

Additional observations from a re-analysis of the deposited data

How the results depend on the processing

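No paired analysis was possible because both libraries belong to 1 group. The level of HSPB1, 274 TPM, was 217 as FPKM and 378 as TPM over protein-coding genes, and 236.82 to 310.69 with either library left out. The share of HSPB1 was 79.9% to 87.3%, members detected 3 to 3 and context genes detected 39 to 40 with either library left out. Of the 4 members tested, 2 passed between the libraries, 0 by the edgeR exact test. The log2 ratio of HSPB11 was -0.33 with the GC trend removed, and the cause was not tested. Over the alternatives the adjusted p of HSPB1 ran from 3.79e-56 by the exact binomial test to 1 by the edgeR exact test, and that of HSPB11 from 5.40e-05 to 1. The posterior mean TPM was 1.36 for CRYAB, 0.375 for CRYAA, 0.115 for HSPB2 and 0.445 for HSPB7, against 0.17, 0.085, 0.02 and 0.01 in TPM. Of 41 genes tested in the lists of regulators, partners, refolding chaperones, transport subunits and copies, 28 passed between the libraries, beside 42.2% of all genes, and 20 with the GC trend removed, beside 26.8%. Passing depends on counts, for which these genes were not matched to the rest. Of 105 alternative values, 1 reversed a direction, 2 lost a call and 10 moved past the spread of the libraries or, for the count of members, to 0. The number of members detected ran from 2 to 4. Summing reads divided with overlapping or copied genes was chosen after seeing the data. With 3 or fewer counts, CRYAB, CRYAA, HSPB2, HSPB7 and HSPB3 are limited by depth.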
